A study of Saccharomyces cerevisiae with 60 samples.

Results

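Fkh1-FLAG (FLOP) cells were compared with FLOP cells by ChIP-seq with the anti-FLAG antibody M2, in unsynchronized cultures of budding yeast and over 500 bp bins of the whole genome. These 2 groups hold 3 libraries each, 6 of the 60 libraries of the series. Both strains are W303 MATa cells that lack BAR1, and both carry FLOP, a LexA-FLAG fusion expressed from the TEF1 promoter and integrated beside ADE2 on chr XV together with a pair of lexA operator arrays. LexA is a bacterial repressor with no natural targets in yeast, and the FLOP strain supplies a FLAG-tagged protein that is not Fkh1, with its own target arrays. The Fkh1-FLAG (FLOP) strain also carries FLAG-tagged FKH1 at its own locus, marked with TRP1. Each genotype is 1 strain, cells were grown in YEPD at 23 °C, and nothing in the labels says whether the 3 libraries of a group came from separate cultures, so p-values measure the spread between these libraries, which may be technical.

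Fkh1 is a forkhead (winged-helix) transcription factor that binds DNA containing the core GTAAACA. With its paralog Fkh2 it controls the CLB2 cluster, the genes expressed in G2 and M phase for mitosis and cytokinesis. It also acts at early replication origins and at the recombination enhancer of chr III, which directs MATa cells to use HML as the donor when the mating type is switched.

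Designed oligonucleotides of the study show the core and the residues through which Fkh1 contacts DNA. The first is a strand of the probe made from the TEM1 promoter for gel shift assays, shown because TEM1 is among the regions of largest enrichment, with the core GTAAACA in capitals from position 11. The second is the mutagenesis primer for the DNA binding mutant fkh1-dbm, whose libraries are compared further on, with the changed bases in capitals. The mutant has 5 amino acid changes, N349A, R352A, H353A, S356A and L357A.
TEM1 probe: agcaaaaaagGTAAACAagaaaaggaa
fkh1-dbm primer: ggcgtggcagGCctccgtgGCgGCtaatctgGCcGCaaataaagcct

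The summed window counts were 41953483, 44263661 and 36867406 in the Fkh1-FLAG (FLOP) libraries, against 18250930, 34980332 and 27580870 in the FLOP libraries. Signal is given as the count of reads per 50 bp window after a moving median over 10 windows, divided by the 20th percentile of the library, so that 1 is the level of the low part of the genome. The 20th percentile itself was 128, 126.5 and 101 counts in Fkh1-FLAG (FLOP) and 55.5, 98 and 84 counts in FLOP. Pearson's r of log2 bin levels between replicates was 0.909 to 0.927 in Fkh1-FLAG (FLOP) and 0.877 to 0.907 in FLOP, as a description across bins.

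Fkh1-FLAG was enriched over FLOP at a small number of discrete loci on all 16 chromosomes, and almost nothing was lower. Of 24067 bins tested, 385 were higher in Fkh1-FLAG (FLOP), which is 1.6% of the bins, and 1 was lower (0.00416%), by edgeR's quasi-likelihood test. A call needed a Benjamini-Hochberg adjusted p under 0.05 together with a log2 fold change no smaller than 1 in size. The log2 fold changes of the higher bins ran from 1.00 to 3.72 with a median of 1.36, beside a median of -0.02 over all bins, and 47 bins reached 2. All 385 bins were higher in 9 of 9 pairs of an Fkh1-FLAG (FLOP) and a FLOP library. The bins were called for a large change in these same libraries, so this count is a description. The edge of the call is not a gap in the data, since 82 further bins passed the adjusted p at a log2 fold change between 0.9 and 1. With the adjusted p alone, 2887 bins were higher and 1610 lower.

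**Figure D1:**
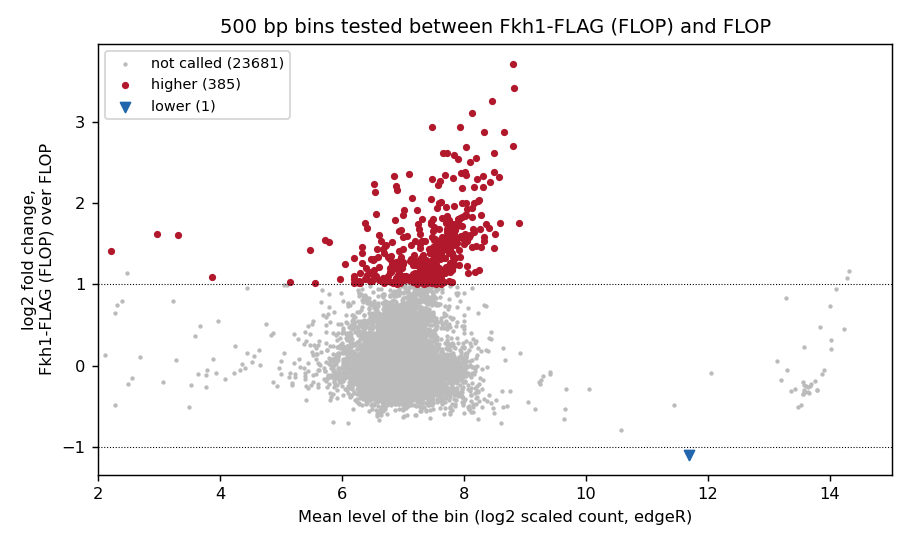
Log2 fold change of Fkh1-FLAG (FLOP) over FLOP (y axis) against the mean level of each 500 bp bin as log2 scaled count (x axis), with 385 bins called higher in red, 1 called lower as a blue triangle and the bins not called in grey. The called bins form an upward tail, and the bin called lower lies among the few bins of very high level.

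The higher bins formed 242 regions, counted as runs with gaps of at most 1 bin, and 133 of them were a single bin and the widest had 5 bins. In the terminal 5 kb of chromosomes there were 24 regions, where 39 of 306 tested bins were higher (12.7%, beside 1.6% of all bins), and sequences there are repeated between chromosome ends, so that the assignment of their reads is uncertain. The rDNA had 0 of 78 bins higher, with 11 at an unadjusted p under 0.05 and a positive change, and DESeq2 called 2. The other 218 regions are described in what follows. Fkh1-FLAG (FLOP) replicate 3 had the highest signal of its group in 216 of these 218 regions, with a median ratio of 1.36 to replicate 1, and replicate 1 had the lowest in 203. Without replicate 3 the count of higher bins was 319, and without replicate 1 it was 442.

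The largest enrichment lay in the recombination enhancer, between KAR4, which encodes a transcription factor of karyogamy, and SPB1. The top bin (chr III, 29001 to 29500) had signals of 6.06, 6.86 and 10.3 in Fkh1-FLAG (FLOP), against 0.652, 0.645 and 0.635 in FLOP. All Fkh1-FLAG (FLOP) libraries stood far above the FLOP libraries, which were close to each other and below the 20th percentile of the genome. The log2 fold change was 3.72 ± 0.15 (SE, adjusted p = 3.31e-26). This region was the widest of the genome, 28001 to 30500, and over the whole interval from KAR4 to SPB1 (28937 to 31448) the signal averaged 3.51 ± 0.66 in Fkh1-FLAG (FLOP) and 0.842 ± 0.046 in FLOP (SD, n = 3 each).

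The mating-type genes were then read one by one. HMLALPHA1, the α1 gene in the silent donor HML, had a signal of 0.957 ± 0.060 in Fkh1-FLAG (FLOP) and 0.656 ± 0.027 in FLOP (SD, n = 3 each). MATALPHA1, placed at the locus MAT by the reference annotation, had 0.832 ± 0.012 in Fkh1-FLAG (FLOP) and 0.634 ± 0.061 in FLOP (SD, n = 3 each). The largest log2 fold change of a bin was 0.67 at HMLALPHA1 and 0.53 at MATALPHA1, both under the fold minimum. At HMR, the other silent donor, the promoters of HMRA1 and HMRA2 had log2 fold changes of 0.48 and 0.45, while the bin past the end of HMRA1 (chr III, 294501 to 295000), between it and GIT1, was called higher. That bin, named after its value was seen, had 1.61, 1.51 and 1.84 in Fkh1-FLAG (FLOP), against 0.765, 0.891 and 0.811 in FLOP, a log2 fold change of 1.01, at the edge of the fold minimum. The α genes at MAT are of the reference annotation, while the cells are MATa and do not carry them at MAT. For one figure the paper took these α genes out of its reference, so that their reads would go to HML. The values at HMLALPHA1 and MATALPHA1 are therefore not separate readings. Other parts of HML, HMR and MAT are also near-identical copies between which reads can be split.

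Among the next regions were regulators of growth form and of mitotic exit. SFG1, a regulator of filamentous growth, had its top bin at chr XV, 906001 to 906500, with signals of 6.0, 6.98 and 10.5 in Fkh1-FLAG (FLOP), against 0.758, 0.926 and 0.677 in FLOP. Its highest window lay 484 bp before the SFG1 start, and the log2 fold change was 3.42 ± 0.16 (SE, adjusted p = 4.32e-24). The TEM1 region, from whose promoter the probe printed above was taken, had its top bin at chr XIII, 146001 to 146500, with signals of 4.15, 4.96 and 6.75 in Fkh1-FLAG (FLOP), against 0.652, 0.839 and 0.867 in FLOP. TEM1 encodes the GTPase at the head of the mitotic exit network, and the highest window lay 100 bp before its start and 506 bp before that of the ribosomal protein gene RPS1B on the other side. The log2 fold change was 2.87 ± 0.14 (SE, adjusted p = 3.11e-23). FRK1, a protein kinase gene of the CLB2 cluster list, had signals of 4.96, 6.53 and 8.91 in Fkh1-FLAG (FLOP), against 1.23, 1.21 and 1.09 in FLOP, in the bin at chr XVI, 286001 to 286500. In each of these regions the lowest Fkh1-FLAG (FLOP) library was above the highest FLOP library, which the rule that chose the regions required.

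Other regions lay before PMA1, GLN1, EXG1 and CWP2 and between HOS3 and IDI1. PMA1, the plasma membrane proton pump, had its highest window 860 bp before its start, inside the open reading frame BRP1. The start of YGL007C-A, a frame without a gene name, lay nearer, at 499 bp. The top bin before PMA1 (chr VII, 483501 to 484000) had signals of 3.71, 4.70 and 5.50 in Fkh1-FLAG (FLOP), against 0.517, 0.525 and 0.642 in FLOP. Its log2 fold change was 3.11 ± 0.13 (SE, adjusted p = 1.03e-25). GLN1, glutamine synthetase, had its highest window 782 bp before its start, and the bin at chr XVI, 641501 to 642000, had signals of 3.56, 4.29 and 4.81 in Fkh1-FLAG (FLOP), against 0.583, 0.573 and 0.563 in FLOP. The groups were widely separated at both genes, and the FLOP signal was about as low as in the recombination enhancer. The interval between HOS3, a histone deacetylase gene, and IDI1, which encodes an isomerase of sterol synthesis, had signals of 4.22, 4.90 and 6.82 in Fkh1-FLAG (FLOP), against 0.616, 0.687 and 0.720 in FLOP, at chr XVI, 329001 to 329500. The cell wall genes EXG1, an exoglucanase, and CWP2, a mannoprotein, had their highest windows 629 bp and 527 bp before their starts. EXG1 had 4.78, 5.94 and 8.50 in Fkh1-FLAG (FLOP), against 0.901, 1.05 and 1.06 in FLOP, and CWP2 had 3.34, 4.12 and 5.1 in Fkh1-FLAG (FLOP), against 0.772, 0.571 and 0.820 in FLOP.

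The last 3 of the 12 largest regions had log2 fold changes of 2.61 each. OPT2, an oligopeptide transporter gene, had its highest window 1339 bp before its start and signals of 2.37, 3.38 and 3.89 in Fkh1-FLAG (FLOP), against 0.465, 0.574 and 0.562 in FLOP. FMP48, a gene for a putative protein kinase, had its highest window 870 bp before its start and signals of 2.89, 3.33 and 3.69 in Fkh1-FLAG (FLOP), against 0.591, 0.610 and 0.661 in FLOP. On the other side of that window, the start of YGR050C, a frame without a gene name, lay nearer, at 284 bp. The remaining region (chr X, 612501 to 614000) lay in the 254 bp between the convergent ends of JJJ3 and YJR098C and so faced no gene start. Its top bin had signals of 4.64, 5.15 and 7.05 in Fkh1-FLAG (FLOP), against 0.991, 1.07 and 0.940 in FLOP.

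**Figure D2:**
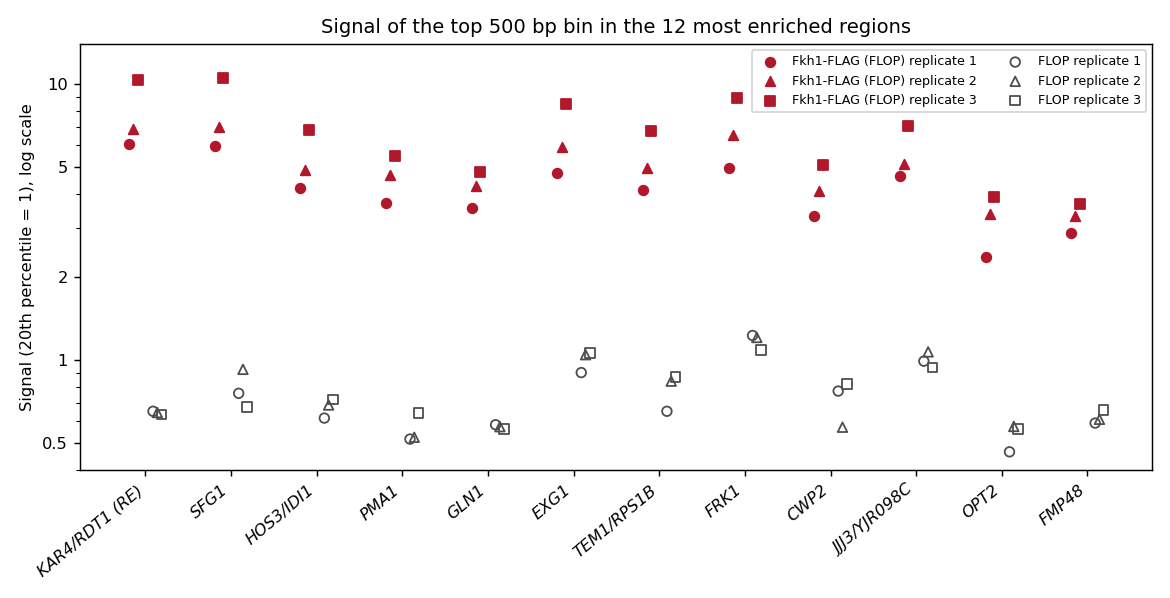
Signal (y axis, log scale, 20th percentile of the library = 1) of the top 500 bp bin in the 12 regions of largest log2 fold change (x axis, named by neighboring genes), with filled red symbols for the 3 Fkh1-FLAG (FLOP) libraries and open grey symbols for the 3 FLOP libraries. The Fkh1-FLAG (FLOP) signals lie between 2.37 and 10.5 and the FLOP signals between 0.465 and 1.23. The groups do not overlap in any of the 12 regions, which the rule that chose the regions required.

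The shape of the signal around the highest window was alike within each group, and in Fkh1-FLAG (FLOP) its height differed between libraries. Averaged over the 218 regions, the signal at the highest window was 2.45, 2.80 and 3.52 in the Fkh1-FLAG (FLOP) libraries, against 0.932, 0.920 and 0.931 in the FLOP libraries. At 1000 bp to the left it was 1.42, 1.52 and 1.52 in Fkh1-FLAG (FLOP), against 1.21, 1.22 and 1.21 in FLOP. The FLOP signal dipped where the Fkh1-FLAG signal peaked. The windows were chosen for their height in Fkh1-FLAG (FLOP), so its peak is a description. The Fkh1-FLAG and fkh1-dbm-FLAG libraries, from strains without FLOP, had no part in that choice. They had 2.98, 3.04 and 3.61 in Fkh1-FLAG at the highest window, against 0.962, 0.955 and 0.950 in fkh1-dbm-FLAG.

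**Figure D3:**
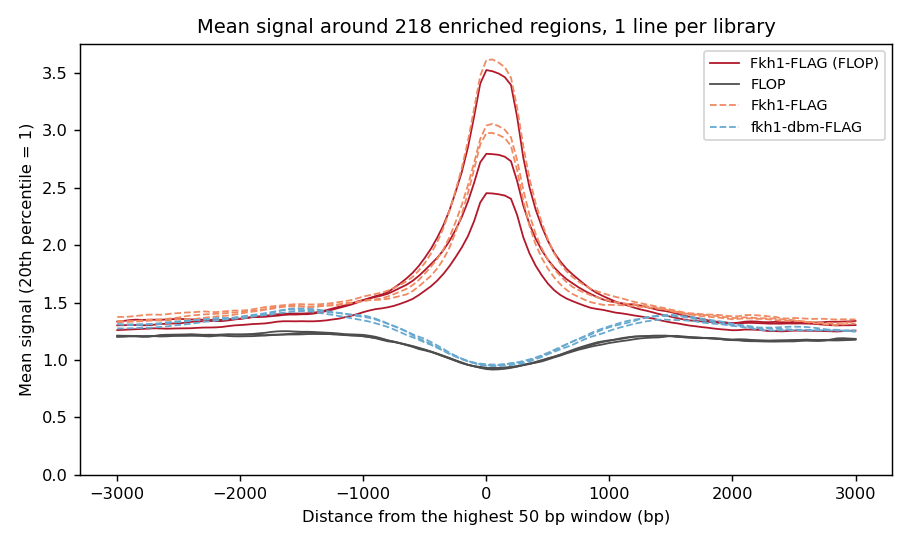
Mean signal (y axis, 20th percentile of the library = 1) at each distance in bp from the highest 50 bp window of 218 regions (x axis), with 1 line per library, solid for Fkh1-FLAG (FLOP) in red and FLOP in grey, dashed for Fkh1-FLAG in orange and fkh1-dbm-FLAG in blue. Fkh1-FLAG (FLOP) reaches 2.45 to 3.52 and Fkh1-FLAG 2.98 to 3.61 at the center, where FLOP and fkh1-dbm-FLAG dip below 1.

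Most of the highest windows lay between genes and upstream of at least 1 of them. Of the 218, 97 lay between tandem genes, 73 between divergent genes, 11 between convergent genes and 37 within an open reading frame, some of them unnamed frames in long promoters such as YKL097C before CWP2 and YPR195C before OPT2. A gene start faced the window in 199 cases, at a median distance of 377 bp (quartiles 174 and 736.5 bp), and 82 windows lay over 500 bp away from that start. These distances count all protein-coding frames, while those given for single named genes skip frames without a gene name. By bins, 4.59% of those between divergent genes and 4.13% of those between tandem genes were higher, beside 1.28% between convergent genes and 0.591% within genes. Beyond the last gene of a chromosome, where sequences are repeated, 35 of 65 bins were higher (53.8%). Higher intergenic bins lay in intervals with a median length of 1117.5 bp, against 739 bp for all intergenic bins tested. In intervals under 500 bp 36 of 2086 bins were higher (1.73%), and in those of 500 to 1000 bp 74 of 1825 (4.05%). In intervals of 1000 to 2000 bp it was 83 of 1363 (6.09%), and in longer ones 49 of 1078 (4.55%). This is a description, since a bin in a short interval also covers parts of the genes.

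The CLB2 cluster was then examined with promoters taken as the 500 bp before the gene start. Over all genes, 213 of 5988 promoters tested were higher in Fkh1-FLAG (FLOP) (3.56%) and 0 were lower, by DESeq2 also 0, while 589 had an unadjusted p under 0.05 with a negative change. By the adjusted p alone, 1298 promoters had a positive change (21.7%) and 308 a negative one (5.14%). Of 31 CLB2 cluster promoters, 11 were higher and 0 lower. At an adjusted p below 0.05, 25 had a positive change, beside 21.7% of all promoters, and 1 a negative one, beside 5.14%. The median log2 fold change of the list was 0.57, beside 0.04 over all promoters.

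TEM1 and FRK1 led the list. The TEM1 promoter (chr XIII, 145901 to 146400) had 4.73, 5.35 and 7.64 in Fkh1-FLAG (FLOP), against 0.629, 0.830 and 0.838 in FLOP, with a log2 fold change of 3.17 ± 0.18 (SE, adjusted p = 7.38e-24). The FRK1 promoter (chr XVI, 286101 to 286600) had 5.46, 7.13 and 10.1 in Fkh1-FLAG (FLOP), against 1.21, 1.20 and 1.1 in FLOP. KIP2, a kinesin motor gene, had 3.24 ± 0.64 in Fkh1-FLAG (FLOP) and 0.947 ± 0.044 in FLOP (SD, n = 3 each), a log2 fold change of 1.88. The bud site genes BUD3 and BUD4 had log2 fold changes of 1.76 and 1.27. DBF2, a kinase of the mitotic exit network, had 2.60 ± 0.50 in Fkh1-FLAG (FLOP) and 0.993 ± 0.141 in FLOP (SD, n = 3 each). AMN1, an antagonist of mitotic exit, ASE1, a spindle midzone protein gene, CLB1, a mitotic cyclin gene, and CDC20, an activator of the anaphase-promoting complex, had log2 fold changes of 1.53, 1.36, 1.33 and 1.32. Each of the 11 was higher in 9 of 9 pairs of libraries. The same held for list members that were not called, such as MYO1 and CDC5, with log2 fold changes of 0.12 and 0.21.

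CLB2 itself, the mitotic cyclin that gives the cluster its name, was not called with the 500 bp window. Its log2 fold change was 0.34. With 1000 bp before the start, an alternative chosen after seeing the data, it was 1.19, and 10 of 31 list members were called, beside 170 of 5984 promoters. SWI5, a transcription factor, and CDC5, the polo kinase, had log2 fold changes of 0.56 and 0.21 and were not called. KIN3, a protein kinase gene, was the list member with the lowest value, -0.37 (adjusted p = 0.010), and was higher in 0 of 9 pairs of libraries.

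Genes of transcription factors and of G1/S were examined in the same way. Of 18 cell cycle transcription factor promoters 3 were higher (16.7%, beside 3.56% of all promoters), FKH2, YHP1 and PLM2. The median of the list was 0.26. FKH2, the paralog of FKH1, had 1.54, 1.74 and 2.09 in Fkh1-FLAG (FLOP), against 0.792, 0.820 and 0.804 in FLOP. YHP1, a homeobox repressor of the M/G1 boundary, had a log2 fold change of 1.57, and PLM2, a forkhead-associated domain protein gene, one of 1.23. FKH1 itself, with 0.44, and the G2/M activator NDD1, with 0.60, did not pass the fold minimum. Of 16 targets of SBF and MBF, the factors of G1/S transcription, 2 were higher (12.5%, beside 3.56% of all promoters). That count was 4 without Fkh1-FLAG (FLOP) replicate 1 and 1 without Fkh1-FLAG (FLOP) replicate 2 or 3 or FLOP replicate 3. RNR1, the large subunit of ribonucleotide reductase, had 3.17, 3.75 and 4.61 in Fkh1-FLAG (FLOP), against 0.936, 0.828 and 0.971 in FLOP, a log2 fold change of 2.08 (adjusted p = 1.94e-19). SWE1, the kinase that inhibits Cdc28, had 1.01, at the edge of the fold minimum. CLN1, a G1 cyclin gene, had 0.83 in the 500 bp window and 1.76 in the 1000 bp window, while CLN2, its paralog, had 0.05 and 0.08.

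Spindle and kinetochore genes had 2 of 18 promoters higher (11.1%, beside 3.56% of all promoters). These were MTW1, a kinetochore gene, with a log2 fold change of 1.53, and ESP1, separase, with 1.07. The count was 1 without Fkh1-FLAG (FLOP) replicate 3 or FLOP replicate 2, and it ranged from 1 to 3 over the fits without 1 library. Histone genes had 2 of 10 promoters higher (20%, beside 3.56% of all promoters), HHT1 and HHF1. These encode histones H3 and H4 and share their promoter. HHF1 had 2.23, 2.31 and 2.70 in Fkh1-FLAG (FLOP), against 0.814, 0.901 and 0.914 in FLOP. The windows of HHT1 and HHF1 overlap, so they are largely 1 measurement. All 10 histone promoters had a positive change with an adjusted p below 0.05, as did 21.7% of all promoters, and the median was 0.57.

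Glycolysis, taken as a set of highly transcribed genes, had 4 of 16 promoters higher (25%, beside 3.56% of all promoters). Its median log2 fold change was 0.50. PDC1, pyruvate decarboxylase, had 2.17, 2.89 and 3.21 in Fkh1-FLAG (FLOP), against 0.793, 0.815 and 0.758 in FLOP, a log2 fold change of 1.93. CDC19, pyruvate kinase, had 1.28, 1.49 and 1.72 in Fkh1-FLAG (FLOP), against 0.585, 0.430 and 0.484 in FLOP, a log2 fold change of 1.54. PFK2, a subunit of phosphofructokinase, and PGK1, phosphoglycerate kinase, had 1.08 each and lay near the fold minimum. In 14 of the 16 the change was positive with an adjusted p below 0.05, beside 21.7% of all promoters. The signal at CDC19, PFK2 and PGK1 was low in both groups, between 1.02 and 1.72 in Fkh1-FLAG (FLOP), while in FLOP it was below the 20th percentile of the genome.

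tRNA and snoRNA genes, which are transcribed at high rates, had median changes near that of all bins, -0.02. Of 272 tRNA genes 4 were higher (1.47%, beside 1.6% of all bins) and 0 lower, with a median log2 fold change of -0.05. DESeq2 also called 0 lower, while 49 had an unadjusted p under 0.05 with a negative change. At an adjusted p below 0.05, 32 had a positive and 29 a negative change, beside 2887 and 1610 of all 24067 bins. The 4 were YNCL0044W, SUF11, YNCK0011C and YNCN0004W, with 1.69, 1.59, 1.34 and 1.30. SUF11 lay in an enriched region before SGO1, the shugoshin gene. Of 76 snoRNA genes 0 were higher and 0 lower, with a median of 0.01, and DESeq2 also called 0 in each direction. An unadjusted p under 0.05 came with a positive change in 15 and with a negative one in 11. The adjusted p was below 0.05 with a positive change in 11 and with a negative one in 7.

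**Figure D4:**
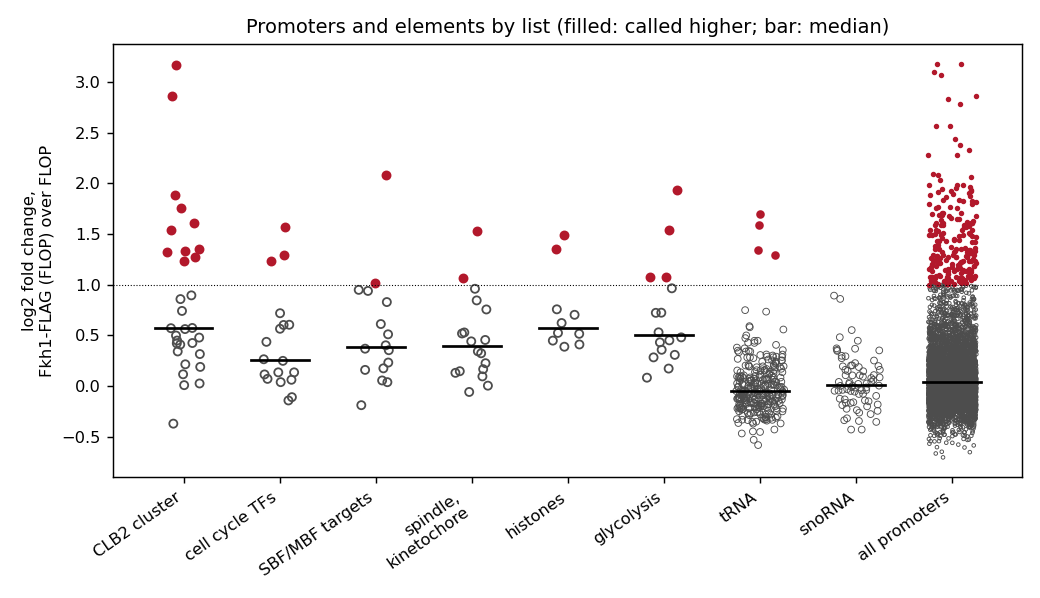
Log2 fold change of Fkh1-FLAG (FLOP) over FLOP (y axis) for promoters of 6 gene lists, tRNA genes, snoRNA genes and all promoters (x axis), with filled points for those called higher, open points for the others and a bar at the median. The CLB2 cluster has 11 of 31 points filled and includes TEM1 at 3.17, the highest value among the 6 lists, while tRNA and snoRNA genes center on 0.

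The loci of the constructs were read as a check on the strains. In the FKH1 gene (chr IX, 100781 to 102235) the signal was 1.17, 1.27 and 1.25 in Fkh1-FLAG (FLOP), against 1.15, 1.14 and 1.09 in FLOP. The bin with the 3′ end of FKH1 (100501 to 101000) had a log2 fold change of -0.67 ± 0.10 (SE, adjusted p = 9.30e-07). TRP1, a marker that the tagged strain carries in addition to its own copy, had 1.30, 1.36 and 1.47 in Fkh1-FLAG (FLOP), against 0.948, 1.08 and 1.08 in FLOP, and its largest bin had 0.62 (adjusted p = 3.27e-07). TEF1, whose promoter drives LexA-FLAG in both strains, had 2.20 ± 0.07 in Fkh1-FLAG (FLOP) and 2.08 ± 0.09 in FLOP (SD, n = 3 each), and its largest bin had a log2 fold change of 0.22 (adjusted p = 0.14). ADH1 is a glycolytic gene whose promoter drives LexA in the other control constructs of the study, not in FLOP. Its promoter had a log2 fold change of 0.96 and was not called.

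The lexA arrays, at which LexA-FLAG is bound in both strains, were taken as the 500 bp around the highest FLOP windows of the construct. The choice used FLOP alone, which favors a higher FLOP signal there, so the difference between the groups is a description. At the first array (chr XV, 566351 to 566850) the signal was 12.8, 14.3 and 32.8 in Fkh1-FLAG (FLOP), against 38.7, 44.0 and 40.1 in FLOP. Fkh1-FLAG (FLOP) was lower in each of the 9 pairs, at a ratio of means of 0.488, and replicate 3 stood apart from the other libraries of its group. The 1 bin called lower in the genome was here (566501 to 567000, log2 fold change -1.1 ± 0.28, SE, adjusted p = 2.48e-03), and it was not called without Fkh1-FLAG (FLOP) replicate 1 or without replicate 2, nor by DESeq2. At the second array (567851 to 568350) the signal was 16.5, 14.6 and 27.3 in Fkh1-FLAG (FLOP), against 19.9, 32.7 and 24.8 in FLOP, and the groups overlapped. ADE2, beside the arrays, had 4.33 ± 1.29 in Fkh1-FLAG (FLOP) and 6.80 ± 0.31 in FLOP (SD, n = 3 each). In Fkh1-FLAG libraries from the strain without the construct, the first array had 0.122 ± 0.025 (SD, n = 3).

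The enriched bins were next set beside comparisons that share no library with this one. Fkh1-FLAG against fkh1-dbm-FLAG replaces the LexA-FLAG control by a Fkh1 that carries the tag and the changes printed above. Of the 385 bins, 310 were also higher there, 80.5% of the 385 and 72.3% of the 429 that were higher in that comparison, where 1.78% of all bins were higher. All 385 had a positive change, with a median log2 fold change of 1.37. In the recombination enhancer the top bin had 9.66, 9.32 and 13.3 in Fkh1-FLAG, against 0.745, 0.586 and 0.578 in fkh1-dbm-FLAG, a log2 fold change of 4.21 ± 0.11 (SE, adjusted p = 7.69e-43). At TEM1 the values were 4.51, 4.94 and 6.47 in Fkh1-FLAG, against 0.829, 0.988 and 0.894 in fkh1-dbm-FLAG. All 12 of the largest regions were higher in this comparison, with log2 fold changes from 2.28 at CWP2 to 4.21.

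With another tag and antibody, Fkh1-MYC (MOP) against MOP, 337 of the 371 bins that could be tested were higher, 90.8% of the 371 and 49.7% of the 678 higher bins of that comparison (2.95% of all bins). The right arm of chr XV beyond ADE2 was left out there, because the MYC and FLAG constructs differ in length. The MYC libraries were shallower, with a 20th percentile of 11 to 16.5 counts, against 55.5 to 128 in the FLAG libraries. The coefficient of variation fitted by edgeR was 0.143 in the MYC and 0.080 in the FLAG comparison. The part of depth and spread in the differences between the tags was not tested. A test of the difference between the FLAG and the MYC change gave 130 of 23019 bins at an adjusted p below 0.05, of which 125 had the smaller change with FLAG (0.543%) and 5 the larger (0.0217%). In the recombination enhancer the FLAG change was smaller by 1.18 ± 0.28 (log2, SE, adjusted p = 0.033). It was also smaller at OPT2, FRK1 and HOS3, with differences of -1.05, -0.96 and -0.96. At TEM1 the difference was -0.00 ± 0.26. The count of such bins was between 57 and 74 when Fkh1-FLAG (FLOP) replicate 1 or 2 or any 1 FLOP library was left out, 85 without Fkh1-MYC (MOP) replicate 1, and was 176 without Fkh1-FLAG (FLOP) replicate 3.

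In cells held in G1 with α-factor, the same 2 strains gave 165 higher bins of 24065 (0.686%). Of the 385 bins of unsynchronized cells 120 were among them, 31.2% of the 385 and 72.7% of the 165. The 385 bins all had a positive change in G1, with a median log2 fold change of 0.75. The difference between the unsynchronized and the G1 change was tested in 1 fit, and 293 of 24068 bins had the larger change in unsynchronized cells (1.22%) and 51 the smaller (0.212%). Among the 385 bins, which were chosen on the unsynchronized libraries so that their share is a description, 185 had the larger change in unsynchronized cells and 1 the smaller. The recombination enhancer had a G1 log2 fold change of 1.91 ± 0.15 (SE), and its change was larger in unsynchronized cells by 1.81 ± 0.22 (SE, adjusted p = 1.93e-07). SFG1 had 1.52 in G1 and a difference of 1.89. HOS3, GLN1 and JJJ3 had 2.77, 2.61 and 2.28 in G1, and their differences of 0.49, 0.34 and 0.34 had adjusted p of 0.37, 0.56 and 0.63. The G1 libraries also differed at the first lexA array, with 84.6 ± 37.2 in G1 Fkh1-FLAG (FLOP) and 102 ± 23.9 in G1 FLOP (SD, n = 3 each), and the part of this in the difference was not tested. Without G1 Fkh1-FLAG (FLOP) replicate 2 the count of differing bins was 623 instead of 344. It was 143 without Fkh1-FLAG (FLOP) replicate 3, 203, 205 and 215 without FLOP replicates 1, 2 and 3, and 207 without G1 Fkh1-FLAG (FLOP) replicate 3.

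**Figure D5:**
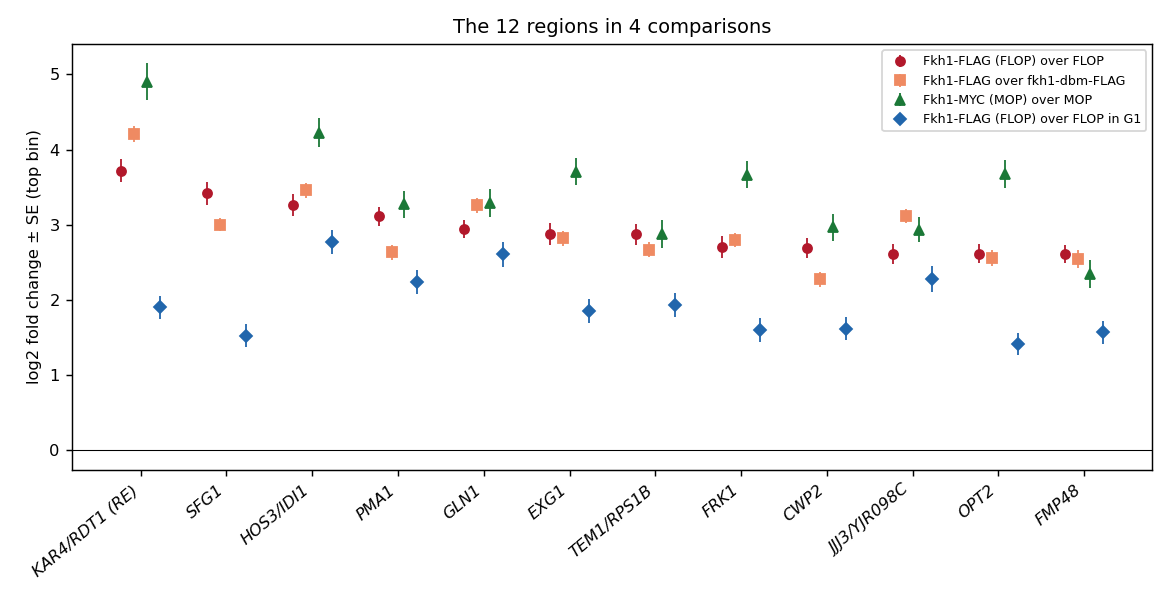
Log2 fold change with its SE (y axis) of the top bin in 12 regions (x axis, named by neighboring genes) in the unsynchronized FLAG comparison (red), Fkh1-FLAG over fkh1-dbm-FLAG (orange), Fkh1-MYC (MOP) over MOP (green, SFG1 not tested) and the FLAG comparison in G1 (blue). The G1 value is the lowest of the values plotted in each region, from 1.42 at OPT2 to 2.77 at HOS3.

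Of the 371 bins tested in all of these comparisons, 111 were higher in each. The change was positive in all 371 bins tested with MYC, with a median log2 fold change of 1.71, and in all 385 bins of each of the other two comparisons.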

How the data were processed

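The 6 ChIP-seq libraries of the 2 groups were used in full, and libraries of 3 further pairs of groups only for comparison. The authors sheared chromatin by sonication, sequenced 150 bp paired-end reads, mapped them by Bowtie2, took out duplicates by Samtools and, with Bedtools, deposited raw counts per 50 bp window, in which a read is counted in each window it overlaps, so neighboring windows share reads. The labels name the Fkh1-FLAG (FLOP) strain MPy54, where the paper has MPy55, and they were matched by genotype. From these counts the signal was made with a moving median over 10 windows and division by the 20th percentile. Bins are sums of 10 unsmoothed windows, scaled by the 20th percentile in place of library size. Those reaching 10 counts in 3 or more libraries were tested with edgeR 4.0.16 (glmQLFit, glmQLFTest, Benjamini-Hochberg adjustment) in R 4.3.3. Alternatives used DESeq2 1.42.0. SE is the log2 fold change over the square root of F. Counts were also simulated, each bin drawn independently from its mean level and the dispersion fitted to this comparison. In them all 200 bins changed 4-fold were found, 106 of 200 changed 2-fold passed the fold minimum, and 0 unchanged bins were called. Shared reads and the difference in height between replicates at the peaks were not simulated. These counts therefore check the procedure and give no error rate for the called bins.

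Named regions are the 12 with the largest log2 fold change among those higher in 9 of 9 pairs outside chromosome ends, rDNA and constructs, and named genes are the called members of the lists, except for 1 that is not reported here, with FKH1, TRP1, ADE2, TEF1, ADH1, TEM1, the recombination enhancer, HMLALPHA1 and MATALPHA1. No region outside the constructs met the like rule for falls. Members and lists were chosen with earlier results of these data known. Some list members under the threshold were named after their values were seen. Coordinates follow the files. Genes were placed by the RefSeq R64 annotation, with genes right of ADE2 moved by 2000 bp to allow for the construct, and strand from systematic names. Replication origins, centromeres and motif content were not analysed here.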

Additional observations from a re-analysis of the deposited data

Results flagged for a closer look

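In 10 of the 12 largest regions the change of Fkh1-FLAG (FLOP) over FLOP in unsynchronized cells differed from that in G1 or from that of Fkh1-MYC (MOP) over MOP, by the test of the difference itself in edgeR. These regions were chosen for a large unsynchronized change, so the count of larger changes than in G1 is a description. Over all bins, 1.22% had the larger and 0.212% the smaller change in unsynchronized than in G1 cells, and 0.543% had the smaller and 0.0217% the larger change with FLAG than with MYC. The unsynchronized change was larger than the G1 change by 1.81 in the recombination enhancer, 1.89 at SFG1, 0.87 at PMA1, 1.02 at EXG1, 0.95 at TEM1, 1.1 at FRK1, 1.07 at CWP2, 1.20 at OPT2 and 1.04 at FMP48, on the log2 scale. The FLAG change was smaller than the MYC change, with a difference of FLAG minus MYC of -1.18 in the recombination enhancer, -0.96 at HOS3, -0.96 at FRK1 and -1.05 at OPT2. Adjusted p for the tag differences lay between 0.018 and 0.043, near the threshold. The G1 and the MYC libraries come from other cultures, and the MYC libraries, which were also shallower, from another antibody and strain. These cannot be told apart from the conditions.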

How the results depend on the processing

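The higher bins numbered 381 to 396 with TMM, DESeq2 size factors, 50th percentile scaling, DESeq2, no filter, the middle window, all 60 libraries in 1 fit or the replicate block (383), and 346 without chromosome ends and rDNA. Bins of 1000 bp gave 171, from fewer and wider bins. The adjusted p alone gave 2887 higher and 1610 lower bins. The count of lower bins was 0 with DESeq2 and 6 with the middle window, which also gave 1 lower promoter or element, in place of 0. Leaving out 1 library gave 319 to 442 higher and 0 to 2 lower bins, 57 to 176 bins that differed between FLAG and MYC, and 143 to 623 between unsynchronized and G1 cells. The higher promoters of SBF and MBF targets numbered 1 with TMM or DESeq2 size factors and 4 with the middle window, in place of 2. Promoters and elements higher numbered 217 and ranged from 176 to 265. The replicate numbers do not pair the libraries, with correlations of deviations of 0.07, 0.02 and -0.01 for replicates 1, 2 and 3, and the block moved no count by 1.5 times. For the 12 regions and the list genes named, 494 of 504 alternative values kept their call. The other 10 missed the fold minimum, at SWE1, PFK2, ESP1 and PGK1 only. The 1000 bp window before the gene start was not among these alternatives. With it, BUD4, CDC20, PLM2 and HHF1 also fell under the fold minimum, at 0.91, 0.94, 0.77 and 0.92, while CLB2 and CLN1 passed it. The share of bins with the core GTAAACA was not run, as no genome sequence was used here.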

Other observations

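Further regions were named after their values were seen. PDC1 and CCW12, a cell wall protein gene, had log2 fold changes of 2.55 and 2.59 in their top bins, and CLN1 had 2.34, with highest windows 695, 828 and 818 bp before the starts. DSE2, a daughter-specific glucanase gene, had 3.60, 4.54 and 5.31 in Fkh1-FLAG (FLOP), against 1.09, 0.969 and 0.987 in FLOP. SUN4, a cell wall gene of septation, had 4.05, 4.50 and 5.87 in Fkh1-FLAG (FLOP), against 1.34, 1.20 and 1.18 in FLOP.

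HXT1, the low-affinity glucose transporter gene, had 2.69, 3.38 and 4.04 in Fkh1-FLAG (FLOP), against 0.907, 0.798 and 0.779 in FLOP, a log2 fold change of 2.38 beside 0.46 in G1. The difference was 1.92 (adjusted p = 2.30e-09), the largest of the top bins of these regions. RNR1, in contrast, had 2.31 in unsynchronized cells and 2.07 in G1, a difference of 0.23 (adjusted p = 0.75). The bins with the smaller change in unsynchronized cells included one between CDC15 and PAU7, with 0.45 against 1.82 in G1, and one between HBN1 and FRM2, with 0.71 against 1.83 in G1.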
